A study of Homo sapiens with 6 samples.

Results

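Histone and nucleosome genes were taken as the genes that carry the Gene Ontology entry nucleosome in the authors' table and average 0.5 FPKM or more over the 6 samples (FPKM, fragments per kilobase of transcript and per 1000000 fragments). Of the 33900 genes in the table, 98 carried the entry and 67 reached this level. Of these 67 members, 45 were clustered histone genes, 12 were histone variants encoded outside the clusters, and 10 were other genes with the entry, which encode no histone. The samples were wild-type LX-2 cells, a cell line derived from human hepatic stellate cells. One group of 3 received PBS, and the other group of 3 was treated for 48 h with rhSema3C (300 ng/ml). Recombinant human Sema3C is a secreted semaphorin, a family of guidance proteins, and the comparison asked which genes of the stellate cell change in response to it. LX-2 is a single line, and the labels number the samples as biological replicates without saying whether each came from its own culture, so p-values measure the spread between these samples.

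DNA in the nucleus is wound on nucleosomes, each built from the core histones H2A, H2B, H3 and H4 and sealed by a linker histone of the H1 family. The clustered, or replication-dependent, genes supply most core histones while DNA is copied. Their mRNAs have no introns and normally end in a short stem-loop instead of a poly(A) tail, and the protein SLBP binds that stem-loop to guide 3′ end formation and translation. Replication-independent variants such as H3.3 from H3-3A and H3-3B, H2A.Z and macroH2A come from single genes whose mRNAs have poly(A) tails, and their supply does not depend on DNA being copied. CENP-A, the H3 variant of the centromere, is made mainly late in the cell cycle. The libraries were made with a kit for mRNA, and the sources used here do not say how mRNA was selected. A histone mRNA that ends in the stem-loop is lost where poly(A) tails are used for selection, so that levels of clustered genes here may cover a part of their mRNA.

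The stem-loop is the sequence on which these genes differ from other mRNAs, so it is shown for the members described first. Of the 45 clustered members, 43 had a transcript in GENCODE release 29, and 27 of the 43 held a 16-base histone stem-loop in at least 1 transcript. Some of the other models are short, such as the 642-base transcript of H1-2, so a missing match says nothing about the mRNA. The stem arms are in capitals, the loop and the bases on each side are in lower case, and positions are on GRCh38:
H2AC6, chr6:26124664-26124689, plus strand: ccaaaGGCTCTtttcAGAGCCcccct
H2BC21, chr1:149886183-149886208, minus strand: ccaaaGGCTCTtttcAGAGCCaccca
H2AC18, chr1:149842218-149842243, minus strand: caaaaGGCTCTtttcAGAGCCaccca
H2BC4, chr6:26123467-26123492, minus strand: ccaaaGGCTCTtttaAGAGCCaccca
H4C9, chr6:27139649-27139674, plus strand: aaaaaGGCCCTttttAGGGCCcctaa
H4C8, chr6:26285126-26285151, minus strand: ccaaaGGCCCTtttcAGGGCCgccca
H2AX, chr11:119094893-119094918, minus strand: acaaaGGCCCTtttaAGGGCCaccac
The form of H2AC6, H2BC21 and H2AC18 was shared by 15 of the 27 clustered members, among them no H4 gene, and the H4 genes with a match had another pair of arms, which H2AX shared. Of the 12 variants, H2AX was the only one with a match. Its 2 GENCODE transcripts run 821 and 1044 bases past the stem-loop, with a poly(A) signal in that stretch. Among the 27 clustered members, 21 had a model that ran at least 100 bases past the stem-loop, and 15 had a poly(A) signal in that stretch.

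The promoters of the clustered genes shared short motifs, shown here for 3 of the 5 clustered members with the highest FPKM (H2AC18 and H2AC19 are the others). Each sequence covers 250 bases before the RefSeq start and 50 after it on GRCh38.p14, with motif matches on either strand in capitals. The motifs were CCAAT, the TATA box (TATAAA), the octamer bound by POU2F1 (ATTTGCAT) and a motif of H1 promoters (AAACACA):
H2BC12, chr6:27146809-27147108, minus strand: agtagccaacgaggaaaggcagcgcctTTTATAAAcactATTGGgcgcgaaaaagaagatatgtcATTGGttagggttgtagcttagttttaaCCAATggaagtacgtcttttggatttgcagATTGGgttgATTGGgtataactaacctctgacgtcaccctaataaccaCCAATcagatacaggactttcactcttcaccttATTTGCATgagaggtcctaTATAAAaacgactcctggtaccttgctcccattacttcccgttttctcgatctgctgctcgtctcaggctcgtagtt
H1-2, chr6:26056421-26056720, minus strand: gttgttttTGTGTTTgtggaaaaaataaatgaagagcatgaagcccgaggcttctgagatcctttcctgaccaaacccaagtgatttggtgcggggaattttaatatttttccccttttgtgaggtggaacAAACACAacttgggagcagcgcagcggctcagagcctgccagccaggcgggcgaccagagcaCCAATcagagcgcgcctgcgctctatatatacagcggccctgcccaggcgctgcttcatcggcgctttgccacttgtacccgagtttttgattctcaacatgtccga
H2AC6, chr6:26123922-26124221, plus strand: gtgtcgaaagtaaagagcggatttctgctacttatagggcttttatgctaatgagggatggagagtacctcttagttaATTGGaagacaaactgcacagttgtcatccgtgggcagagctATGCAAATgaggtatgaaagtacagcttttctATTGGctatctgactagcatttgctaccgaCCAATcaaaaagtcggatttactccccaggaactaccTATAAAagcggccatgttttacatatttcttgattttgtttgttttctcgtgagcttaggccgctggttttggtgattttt
RefSeq promoters were matched for 62 of the 67 members, 43 of them clustered. CCAAT was found in 36 of these 43 against 34.6% of 35116 promoters of the same length. It was present in all 11 H2A, all 11 H2B and all 10 H3 promoters and in 1 of 8 H4 promoters. ATTTGCAT stood in 9 of 11 H2B and 7 of 11 H2A promoters and in none of the 21 H1, H3 and H4 promoters, against 1.77% of all promoters. TATAAA was found in 30 of the 43 against 11.5%, and AAACACA in all 3 H1 promoters against 5.64%. Matches were counted also where they overlapped, as TATAAA does with its reverse complement in the H2BC12 promoter. Neighbouring genes on opposite strands can have overlapping windows, and a site there counted for both. The octamer is the same site in H2AC6 and H2BC4, H2AC8 and H2BC8, H2AC11 and H2BC11, H2AC17 and H2BC17, and H2AC20 and H2BC21. A match is a run of letters and does not show that a factor was bound.

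Each sample had between 68267808 and 89245585 counts on genes. The quasi-likelihood test of edgeR was run over the 14178 genes that reached the same FPKM limit, and levels are given as counts per 1000000 counts (CPM) after TMM scaling unless FPKM is named. Adjusted p-values are from this test by the Benjamini-Hochberg method, and the log2 fold changes are rhSema3C over PBS with their SE. All 6 libraries expressed stellate cell genes: 8 of the 9 stellate and myofibroblast markers had at least 0.5 FPKM, while COL1A2 had 60 to 132 counts. Of the 5 hepatocyte markers the 3 listed had at most 0.0708 FPKM and the 2 cholangiocyte markers at most 0.611. The 3 endothelial markers summed to 0.151 to 0.178 FPKM in PBS and 0.589 to 0.843 in rhSema3C samples, with VWF at 71 to 88 and 513 to 653 counts. The 9 stellate markers summed to 1504 to 1557 and 1209 to 1275 FPKM. Of the 8 tested, 6 were lower and 1 was higher at an adjusted p below 0.05, against 30.6% and 31.7% of all genes tested. COL1A1 and ACTA2 were among the lower (log2 fold changes -0.78 and -0.56), and LOX was higher (1.05). The paper, by contrast, reports that rhSema3C raised ACTA2 and COL1A1 mRNA in LX-2 cells as measured by PCR. Of the 3 immune markers PTPRC and CD3E had at most 12 counts, and CD68, a lysosomal protein that other cells also make, was lower with rhSema3C (log2 fold change -0.58) and reached 98.0 FPKM. The part of these differences in the results was not tested.

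With rhSema3C, clustered histone genes were lower as a group and none was higher. At an adjusted p below 0.05, 33 of the 45 clustered members fell and 0 rose, while 30.6% of all genes tested were lower and 31.7% were higher. The count of 0 rises was also 0 at an unadjusted p below 0.05 and with DESeq2. Of the 33, 21 fell by more than 2-fold, a change that 2.06% of all genes tested showed in this direction and 3.31% in the other. The same 21 counted at a fold above 2 with an unadjusted p below 0.05, the rule of the study's methods, by which 2.12% of all genes tested were lower and 3.42% higher. By that rule the count was 8 with limma on log2(FPKM + 1) and 10 with limma on log2(TPM + 1). On these scales low genes change less by construction, and TMM scaling was not applied. A gene with a high level, H2AC6, had a mean FPKM of 50.6 in PBS and 25.7 in rhSema3C samples, less than 2-fold apart. The median log2 fold change of the 45 was -0.94, against 0.02 over all genes tested. In 35 members every rhSema3C sample lay below every PBS sample, which held for 33.3% of all genes tested, and in 0 members did every rhSema3C sample lie above, which held for 34.6%. The sum over the 45 genes was 879 ± 15.04 CPM (SD, n = 3) in PBS and 432 ± 2.72 CPM (SD, n = 3) in rhSema3C samples, which is 49.1% of the PBS sum. As a share of all counts it was 0.0833% to 0.0860% in PBS and 0.0445% to 0.0449% in rhSema3C samples. In bulk samples, fewer cells that make histone mRNA and less histone mRNA per cell cannot be told apart.

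The filter on low levels bears on these counts. Under it stood 31 genes with the nucleosome entry, 22 clustered and 9 variants, and without the filter 2 of these, H3C8 and H2BC6, were lower. In that fit 30 of all 67 clustered genes with the entry were lower and 0 higher. Of the clustered members, H3C1, H3C7, H4C5, H2BC7 and H2AC14 passed only through the PBS samples and H4-16 only through the rhSema3C samples. Among the 39 clustered members at or above 0.5 FPKM in both groups, 29 fell, 18 of them past 2-fold. Just inside the limit were H4-16, H3C7 and H3C1 with mean FPKM values of 0.535, 0.540 and 0.553, and just outside it H2AC12, H3C11 and H3C8 with 0.433, 0.389 and 0.378.

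**Figure D1:**
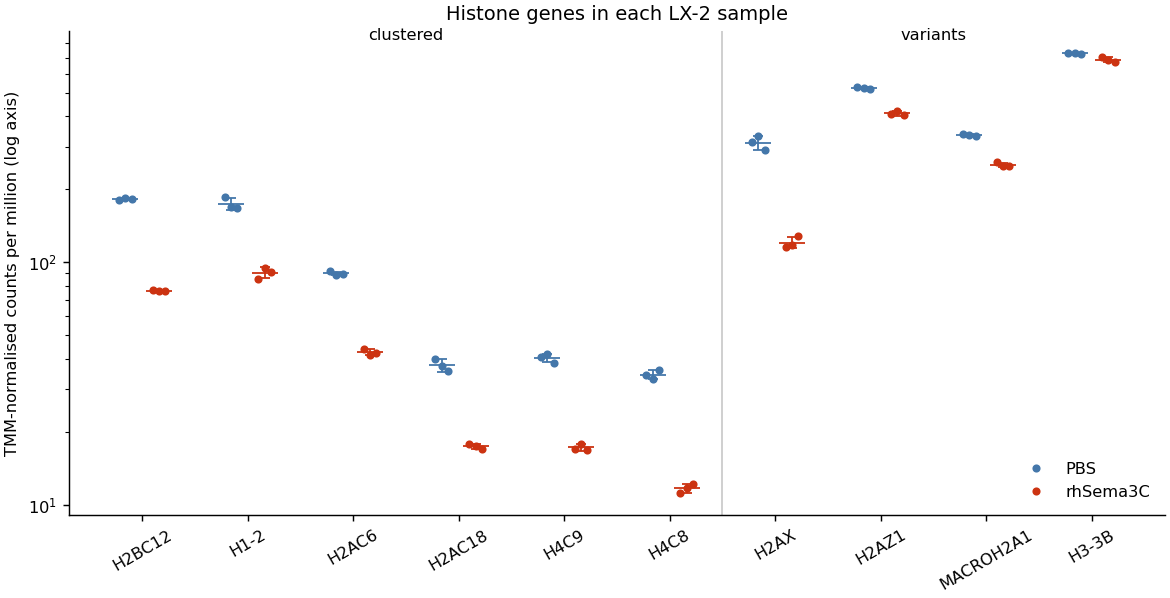
CPM after TMM scaling (log axis) of 6 clustered histone genes and 4 variants in each sample, with PBS in blue and rhSema3C in red. Points are samples, and horizontal marks with bars give mean ± SD (n = 3). The groups are apart in all 10 genes, with rhSema3C lower in each. In H3-3B the change did not pass the test and turned with the scaling.

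H2A and H2B pair in the nucleosome, and H2BC12, an H2B gene, had the highest FPKM of all members, with a mean of 251. It lies at chr6:27146361-27146855 and shares 74.1% of its 50-base words with other genes, 61.4% with the gene model CU639417. Few reads were assigned to CU639417, which had 0 to 6 counts per sample, against 6317 to 15461 for H2BC12. How reads that match several genes were assigned is not given in the sources used here. The levels of H2BC12 were 181, 184 and 183 CPM in PBS and 77.0, 76.1 and 75.8 CPM in rhSema3C samples, so the groups lay far apart compared with their spread. H2BC12 fell by 1.26 ± 0.04 (SE) on the log2 scale (adjusted p = 1.1e-09). H2AC6, an H2A gene at chr6:26124145-26139116, had 91.8, 88.8 and 89.4 CPM in PBS and 44.0, 41.5 and 42.3 CPM in rhSema3C samples. It fell by 1.08 ± 0.05 (SE, adjusted p = 1.5e-08). H2BC4 starts 219 bases from H2AC6 on the other strand, and fell from 5.87, 5.02 and 6.45 CPM to 2.18, 1.99 and 2.11 CPM, a log2 fold change of -1.46 ± 0.16 (SE, adjusted p = 1.4e-05).

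Several H2A and H2B genes stand in such head-to-head pairs, whose starts lie within 1000 bases of each other. Of the 6 pairs with both genes tested, both partners fell in 5, counting the gene model AL031777 with H2BC7 as 1 of them. Of all genes tested, taken singly, 30.6% were lower. H2BC7 passed the filter only through the PBS samples. In H2BC17, the partner of H2AC17, the groups overlapped (adjusted p = 0.048). H2BC11 and H2AC11, 292 bases apart, had log2 fold changes of -1.32 ± 0.08 and -1.18 ± 0.17 (SE). H2BC8 and H2AC8, 283 bases apart, had -1.79 ± 0.16 and -1.35 ± 0.25 (SE), and of the H2A and H2B members H2BC8 fell the most. The exception was H2BC21 with H2AC20. H2BC21 fell from 37.6, 39.9 and 39.0 CPM to 23.5, 22.0 and 20.9 CPM, whereas H2AC20 ranged from 0.213 to 0.841 CPM in PBS and from 0.638 to 0.672 CPM in rhSema3C samples and did not pass the test (adjusted p = 0.61). H2AC20 had 14 to 72 counts per sample, and its log2 fold change of 0.25 ± 0.40 (SE) was -0.12 without PBS replicate 3.

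Across the families, 8 of 11 H2A genes and 9 of 11 H2B genes fell, against 30.6% of all genes tested. Their median log2 fold changes were -1.10 and -0.81. The H2A genes include H2AC14 and the H2B genes H2BC7, which passed the filter only through the PBS samples. Summed H2B counts went from 306 ± 2.45 CPM to 144 ± 1.53 CPM and summed H2A counts from 203 ± 7.39 CPM to 102 ± 2.29 CPM (SD, n = 3 each). The sums do not depend on how reads were split between near-identical members. A read counted for more than 1 member would enter a sum more than once, and the sources used here do not say whether this occurred. H2AC18 and H2AC19 share nearly all their 50-base words (100% and 97.1%), and their counts were 3421 and 3420 in PBS replicate 1. They had log2 fold changes of -1.11 ± 0.07 and -1.10 ± 0.07 (SE) and may be 1 measurement. The other H2A genes past 2-fold were H2AC13 at -1.46 ± 0.19 and H2AC16 at -1.27 ± 0.36 (SE). H2AC16 lies inside the annotated span of H2BC15 on the same strand, and in its rhSema3C samples the level ranged from 0.313 to 1.05 CPM.

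Not all of these genes moved alike. H2BC5 fell by 0.59 ± 0.07 on the log2 scale (SE, adjusted p = 3.8e-05), from a range of 29.1 to 33.4 CPM to one of 20.7 to 21.4 CPM. H2BC9 fell by 0.61 ± 0.19 (SE, adjusted p = 0.014), a call that was lost without PBS replicate 1 (adjusted p = 0.061). H2AW, from a small cluster on chromosome 1, was the clustered member with the highest FPKM that did not pass the test. It had 16.5, 16.8 and 14.7 CPM in PBS and 14.3, 14.6 and 14.6 CPM in rhSema3C samples, with a log2 fold change of -0.15 ± 0.09 (SE, adjusted p = 0.17), which turned to 0.08 on the TPM scale. The groups did not overlap in H2AW, but the lowest PBS sample lay close to the rhSema3C samples.

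H3 and H4 form the centre of the nucleosome. Of the clustered genes, 9 of 10 H3 and 5 of 9 H4 genes fell, against 30.6% of all genes tested. Among those that fell, H3C1, H3C7 and H4C5 passed the filter only through the PBS samples. Summed H3 counts went from 39.3 ± 1.65 CPM to 22.1 ± 0.821 CPM and summed H4 counts from 129 ± 2.51 CPM to 65.6 ± 2.24 CPM (SD, n = 3 each). H4C9 had 40.7, 41.8 and 38.6 CPM in PBS and 17.02, 17.8 and 16.8 CPM in rhSema3C samples, a log2 fold change of -1.23 ± 0.07 (SE, adjusted p = 7.3e-08). H4C8 had 34.4, 32.9 and 35.8 CPM in PBS and 11.2, 11.7 and 12.2 CPM in rhSema3C samples. It fell by 1.55 ± 0.08 (SE, adjusted p = 3.3e-08), and both genes had well separated groups. H4C5 fell by 1.12 ± 0.24 (SE) with 62 to 152 counts per sample.

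H4C14 and H4C15, on chromosome 1, share over 97% of their 50-base words and fell less, by 0.59 ± 0.09 and 0.55 ± 0.08 (SE). Each overlaps an H3 gene on the other strand, H3C14 and H3C15 respectively, which are themselves copies of each other. H3C14 and H3C15 fell by 1.17 ± 0.17 and 1.22 ± 0.17 (SE), and H3C10 by 1.07 ± 0.18 (SE). The use of strand in counting is not given in the sources used here, so reads of such overlapping genes may have been shared. The variants CENPA, H2AZ1, MACROH2A1, MACROH2A2, H3-3A and H1-10 overlap other annotated genes too.

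Low H3 genes gave less certain values. H3C13, with 13 to 40 counts in PBS and 24 to 38 in rhSema3C samples, had a log2 fold change of 0.22 ± 0.50 (SE, adjusted p = 0.72), and its groups overlapped. Without PBS replicate 1 this value was -0.11. H3C1 had 21, 29 and 56 counts in PBS and 15, 3 and 9 in rhSema3C samples. It fell by 2.24 ± 0.59 (SE, adjusted p = 0.0064), the largest fitted change of the clustered genes, and without PBS replicate 3 by 1.64. H3C7 had 28 to 34 counts in PBS and 8 to 16 in rhSema3C samples and fell by 1.53 ± 0.38 (SE, adjusted p = 0.0045), a call lost without the filter (adjusted p = 0.051). H3C2 had 35 to 87 and 17 to 38 counts, and its fall of 1.19 ± 0.37 (SE, adjusted p = 0.016) did not pass without PBS replicate 1 (adjusted p = 0.085), without rhSema3C replicate 3 (adjusted p = 0.058) or without the filter (adjusted p = 0.079).

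AL031777, a gene model at chr6:26195595-26199293, is a readthrough with exons over the clustered genes H2AC7 and H3C4. It had 28.6, 26.8 and 26.6 CPM in PBS and 6.54, 5.28 and 7.52 CPM in rhSema3C samples. With a log2 fold change of -2.09 ± 0.12 (SE, adjusted p = 1.2e-07) it fell the most among clustered members with over 100 counts in each sample. H2AC7 itself stayed under the limit with 0.301 FPKM, and reads from AL031777, H2AC7 and H3C4 cannot be told apart from the table.

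The fall was spread over the clusters. In the first part of the chromosome 6 cluster, 16 of 19 members fell, and in its second part 9 of 13. In the main cluster of chromosome 1, 7 of 10 fell, and of all genes tested 30.6% were lower. The median log2 fold changes were, in this order, -1.08, -1.07 and -0.70. H3C1, H3C7, H4C5 and H2BC7 in the first part and H2AC14 in the second passed the filter only through the PBS samples. H4-16, a lone H4 gene on chromosome 12, had 66 to 147 counts in PBS and 67 to 175 in rhSema3C samples and a log2 fold change of 0.26 ± 0.41 (SE, adjusted p = 0.59), which was -0.01 without PBS replicate 1. Of the 23 members at or above the median level of 2.68 FPKM, 22 fell, and of the 22 below it 11 fell. Of the 27 members with a stem-loop in their GENCODE models 22 fell, and of the 18 without one 11 fell, with medians of -1.08 and -0.92. The 18 include H3C2 and H3C3, which both fell and had no GENCODE transcript to search. Of the 36 members with CCAAT in the promoter 28 fell (median -1.05), and of the 7 without it 4 fell (median -0.55). All 7 without CCAAT are H4 genes, so this split cannot be told apart from histone family. Of the 16 with the octamer 13 fell (median -1.06), and of the 27 without it 19 fell (median -0.91). Some of the 16, such as H2AC6 and H2BC4, share the same octamer site. These splits are descriptions and were not tested.

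**Figure D2:**
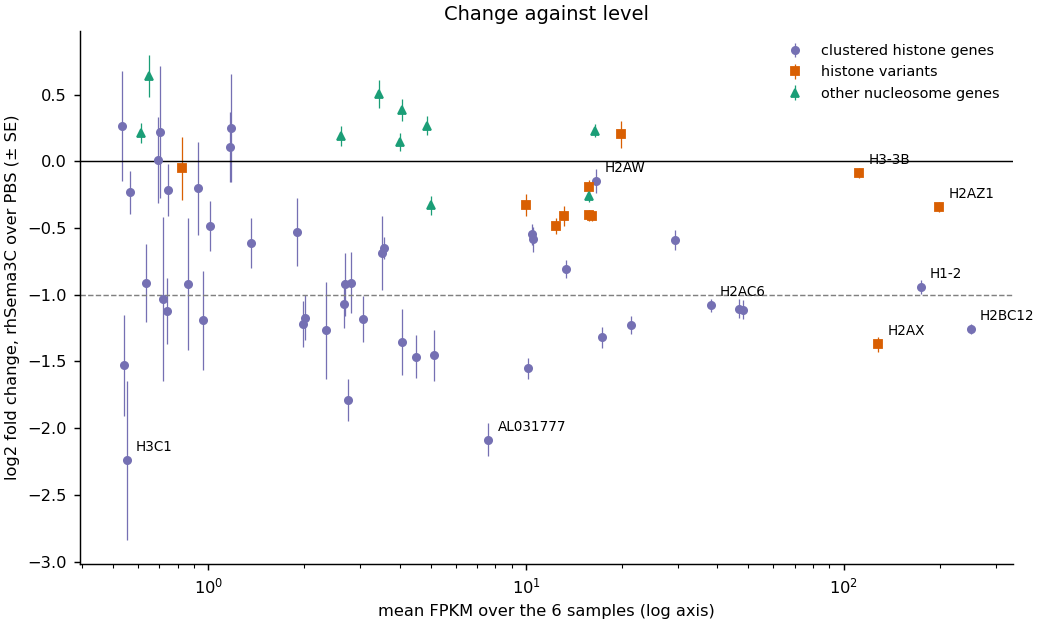
Log2 fold change (rhSema3C over PBS) ± SE against mean FPKM over the 6 samples (log axis) for 66 of the 67 members. Clustered genes are circles, variants squares and other nucleosome genes triangles. Clustered genes above 0 are found only at low FPKM, where the bars are long, and of the variants H2AX lies lowest. The dashed line is a 2-fold fall.

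Linker histones come from clustered and from replication-independent genes. H1-2, which encodes the linker histone H1.2, was the clustered H1 gene with the highest FPKM. It had 185, 169.7 and 168 CPM in PBS and 85.6, 95.04 and 91.4 CPM in rhSema3C samples, and fell by 0.94 ± 0.05 (SE, adjusted p = 9.5e-08). Every rhSema3C sample lay well below every PBS sample.

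H1-10, the gene of the linker histone H1.10, had 31.7, 28.0 and 26.8 CPM in PBS and 28.0, 35.6 and 35.9 CPM in rhSema3C samples, and the groups overlapped. Its log2 fold change of 0.20 ± 0.10 (SE, adjusted p = 0.11) passed the test with library size alone (0.31, adjusted p = 0.022), without PBS replicate 1 (0.28, adjusted p = 0.049) and without rhSema3C replicate 1 (0.31, adjusted p = 0.0090). H1-3 and H1-4 had 26 to 112 counts per sample and log2 fold changes of 0.01 ± 0.32 and 0.10 ± 0.26 (SE, adjusted p = 0.99 and 0.75), which became -0.25 for H1-3 without rhSema3C replicate 3 and -0.08 for H1-4 without rhSema3C replicate 2.

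Among the 12 variants, 8 fell, against 30.6% of all genes tested, and 3 did not pass the test, and the median log2 fold change was -0.33. H2AX changed the most. It encodes the H2A variant that is phosphorylated beside DNA breaks, and it lies at chr11:119093854-119095467. H2AX had 313, 332 and 291 CPM in PBS and 116, 118 and 128 CPM in rhSema3C samples, with no sample near the other group. It fell by 1.37 ± 0.06 (SE, adjusted p = 1.0e-08), past the 2-fold limit that no other variant passed. It is also the variant with a histone stem-loop in its transcripts.

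The other H2A variants fell by less. H2AZ1 and H2AZ2, the H2A.Z genes, had 519 to 529 and 129 to 133 CPM in PBS and 404 to 423 and 96.3 to 101 CPM in rhSema3C samples. Their log2 fold changes were -0.34 ± 0.04 and -0.41 ± 0.04 (SE, adjusted p = 1.6e-05 and 5.7e-06). The FPKM ratio of H2AX to H2AZ1 in the same library went from 0.839 ± 0.0532 to 0.412 ± 0.0288 (SD, n = 3 each, exact two-sided permutation p = 0.1, the smallest possible). MACROH2A1 and MACROH2A2, whose products carry a large extra domain and are found on silent chromatin, fell by 0.41 ± 0.04 and 0.41 ± 0.07 (SE). H2AJ, a gene close to the clustered H2A in sequence, fell from 52.5, 48.2 and 50.3 CPM to 37.3, 35.1 and 35.3 CPM, a log2 fold change of -0.49 ± 0.06 (SE, adjusted p = 3.0e-05).

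CENPA fell from 23.1, 23.0 and 20.8 CPM to 19.1, 17.3 and 17.1 CPM (log2 fold change -0.33 ± 0.08 SE, adjusted p = 0.0053), a call lost on the TPM scale (adjusted p = 0.19). H3-3A and H3-3B both encode H3.3. H3-3A fell by 0.19 ± 0.05 (SE, adjusted p = 0.0042), but with library size alone the log2 fold change was -0.08 (adjusted p = 0.15) and on the TPM scale 0.04. H3-3B had 728, 729 and 726 CPM in PBS and 701, 684 and 668 CPM in rhSema3C samples. Its log2 fold change of -0.09 ± 0.04 (SE, adjusted p = 0.061) depended on the setting. It passed as lower with median-of-ratios factors (-0.10, adjusted p = 0.041) and with DESeq2 (-0.10, adjusted p = 0.016), was 0.02 with library size alone, and passed as higher on the TPM scale (0.14, adjusted p = 0.0058). H3-5 had 61 to 98 counts per sample and a log2 fold change of -0.05 ± 0.23 (SE, adjusted p = 0.86), which was 0.05 with library size alone.

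The median over all genes tested was 0.02 with TMM, 0.13 with library size alone, 0.09 with limma on log2(FPKM + 1) and 0.23 with limma on log2(TPM + 1). The median of the clustered genes was -0.94, -0.83, -0.50 and -0.63 under these settings, and that of the variants was -0.33, -0.23, -0.22 and -0.11. The limma settings change the test, the unit and the pseudocount as well as the scaling. FPKM levels of genes with several transcripts should be compared with care. For H3-3B, counts and FPKM together give a length of 6277 bases although the gene spans 3347 bases. For H2AJ they give 3436 bases against a span of 1199. The lengths used by the authors so exceeded both genes, and the FPKM of H3-3B and H2AJ is too low per length.

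**Figure D3:**
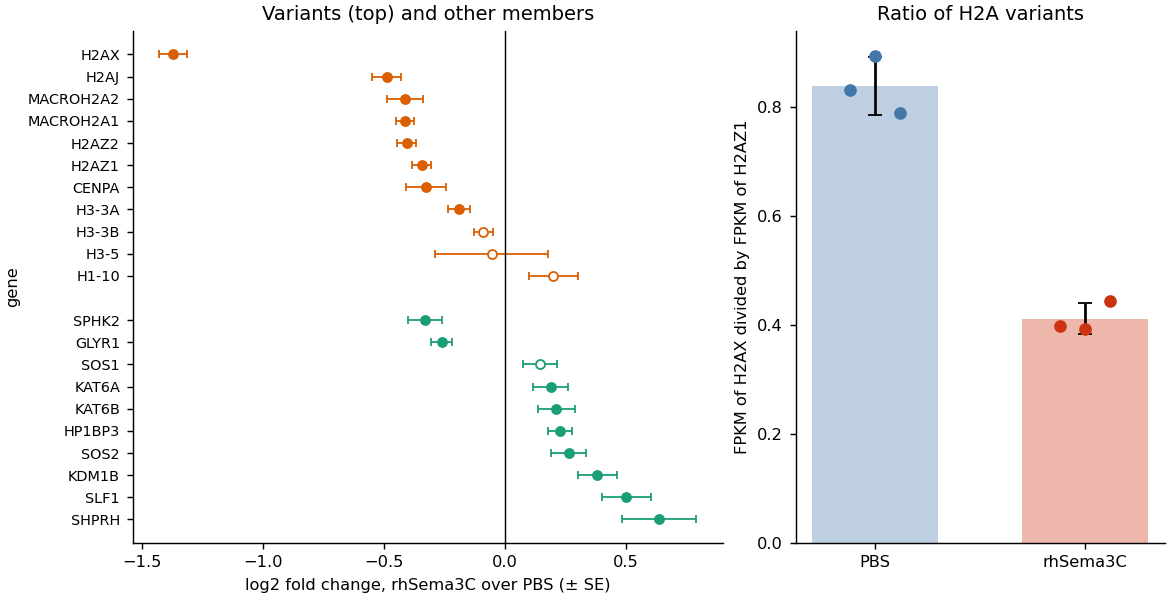
Left, log2 fold change (rhSema3C over PBS) ± SE of 11 histone variants (orange) and the 10 other nucleosome genes (green), with open points where the adjusted p was 0.05 or more. Right, FPKM of H2AX divided by FPKM of H2AZ1 in each sample, with bars at the mean ± SD (n = 3). H2AX lies farthest left of all members shown, and the ratio is lower in each rhSema3C sample than in each PBS sample.

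Of the 10 other members, 7 rose and 2 fell, against 31.7% and 30.6% of all genes tested, all by less than 2-fold, and their median log2 fold change was 0.22. SHPRH, a ubiquitin ligase with a linker histone domain, had 8.73, 7.39 and 11.4 CPM in PBS and 12.6, 14.3 and 16.02 CPM in rhSema3C samples. It rose by 0.64 ± 0.15 (SE, adjusted p = 0.0038), and it reached the limit of 0.5 FPKM only through the rhSema3C samples. SLF1, a protein of the repair of DNA damage, rose by 0.50 ± 0.10 (SE, adjusted p = 0.0012), and KDM1B, a demethylase of histone H3, by 0.38 ± 0.08 (SE, adjusted p = 0.0017). HP1BP3, which contains linker histone domains, rose from 150.1, 144 and 164 CPM to 177, 181 and 179.9 CPM, a log2 fold change of 0.23 ± 0.05 (SE, adjusted p = 0.0019). SPHK2, a sphingosine kinase, fell by 0.33 ± 0.07 (SE, adjusted p = 0.0017), and GLYR1, a nucleosome-binding cofactor of histone demethylation, by 0.26 ± 0.04 (SE, adjusted p = 0.00031). Neither fall passed on the TPM scale, with log2 fold changes of -0.10 and -0.03 (adjusted p = 0.25 and 0.57).

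Factors that act on histone genes and their mRNAs are given first. Of 25 genes for histone gene transcription and histone mRNA processing, 24 were tested, 8 rose and 10 fell (33.3% and 41.7%, against 31.7% and 30.6% of all genes tested), and the median log2 fold change was -0.03. POU2F1, which binds the octamer of H2B promoters, rose from 9.38, 9.01 and 10.4 CPM to 15.5, 15.7 and 13.6 CPM, a log2 fold change of 0.64 ± 0.10 (SE, adjusted p = 0.00024). CASP8AP2, a protein of the histone locus body, rose by 0.64 ± 0.08 (SE, adjusted p = 4.0e-05). CCNE1, the cyclin that with CDK2 starts S phase, fell by 0.77 ± 0.08 (SE, adjusted p = 6.1e-06), and SRRT, which links the mRNA cap to 3′ end processing, by 0.91 ± 0.04 (SE, adjusted p = 2.4e-08). SLBP, the stem-loop binding protein, had 123, 118 and 116 CPM in PBS and 117, 120 and 118 CPM in rhSema3C samples. Its log2 fold change was -0.01 ± 0.04 (SE, adjusted p = 0.91), and 0.10 with library size alone (adjusted p = 0.044). RNU7-1, the small RNA of the processing complex, was listed with 1 count in every sample and was not tested.

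Histone chaperones carry histones to and from DNA. Of 27 genes 26 were tested, 8 rose and 13 fell (30.8% and 50%, against 31.7% and 30.6% of all genes tested), with a median of -0.06. NAP1L1, an H2A and H2B chaperone, rose by 0.48 ± 0.06 (SE, adjusted p = 2.1e-05), and NPM1, the nucleolar chaperone, by 0.36 ± 0.06 (SE, adjusted p = 0.00019). IPO4, which imports H3 and H4 into the nucleus, fell from 92.7, 101 and 91.7 CPM to 45.0, 41.1 and 43.7 CPM, a log2 fold change of -1.14 ± 0.06 (SE, adjusted p = 3.3e-08). ASF1B, an H3 and H4 chaperone of dividing cells, fell by 0.72 ± 0.06 (SE, adjusted p = 9.0e-07). ATRX had 8 to 62 counts per sample and was not tested.

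Since clustered histone genes are active in S phase, genes of DNA replication were read beside them. Of 24 S phase genes, 18 fell and 3 rose (75.0% and 12.5%, against 30.6% and 31.7% of all genes tested), with a median log2 fold change of -0.30. FEN1, the nuclease that trims Okazaki fragments, fell from 325, 347 and 329 CPM to 171, 167 and 171 CPM, a log2 fold change of -0.97 ± 0.04 (SE, adjusted p = 1.4e-08). UHRF1, which keeps DNA methylation through replication, fell by 0.93 ± 0.04 (SE, adjusted p = 2.9e-08). The helicase subunit gene MCM6 rose by 0.28 ± 0.04 (SE, adjusted p = 0.00023) and the clamp loader gene RFC4 by 0.23 ± 0.06 (SE, adjusted p = 0.0090). Of these 24 genes 0 passed 2-fold, against 21 of the 45 clustered histone genes. Over all genes tested the shares past 2-fold were 2.06% lower and 3.31% higher, so a count of 0 among 24 lies near them. In contrast to these lower levels, the paper reports that rhSema3C enhanced the proliferation of LX-2 cells in an EdU incorporation assay. RNA levels do not measure DNA synthesis, so whether fewer cells were copying DNA in these samples is not known. The part of S phase genes in the fall of histone genes was not tested.

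RNAs without poly(A) tails were also read beside the histone genes. Of 24 such RNAs 7 reached the limit. At an adjusted p below 0.05, 0 rose and 0 fell, against 31.7% and 30.6% of all genes tested. At an unadjusted p below 0.05 these counts were 0 too. With DESeq2 0 passed as well, and with limma on log2(TPM + 1) 1 was higher. RN7SL1, an RNA of the signal recognition particle, had 2.23 to 3.28 CPM in PBS and 2.32 to 2.74 CPM in rhSema3C samples (log2 fold change -0.22 ± 0.20 SE). Of the RNAs under the limit, SNORD3A had 9 to 25 counts per sample, RPPH1 0 to 8, RMRP 0 to 4 and RNU1-1 0 to 1. The levels of the 7 RNAs were low too, and the part of RNAs without poly(A) tails in the result was not tested.

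**Figure D4:**
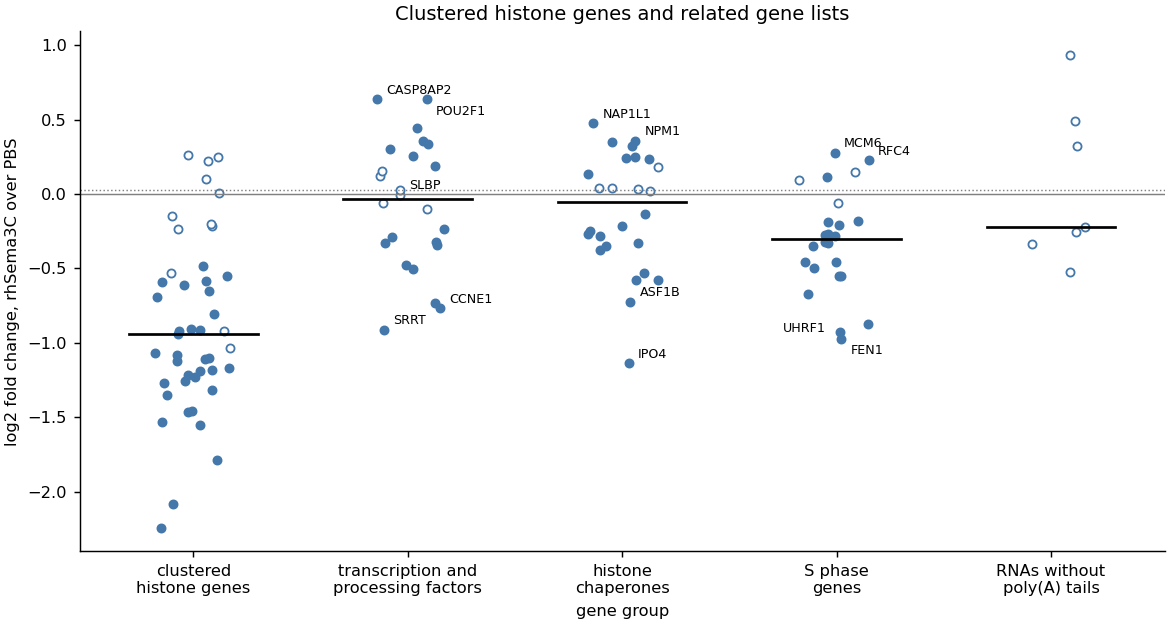
Log2 fold change (rhSema3C over PBS) of the clustered histone genes and of 4 related gene lists, with 1 point per gene tested. Filled points passed an adjusted p of 0.05, black bars are medians, the solid grey line is 0 and the dotted line is the median of all genes tested. The medians are -0.94 for the clustered genes, -0.03, -0.06 and -0.30 for the next 3 lists, and -0.22 for the 7 RNAs without poly(A) tails, none of which passed.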

How the data were processed

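Counts of reads per gene and FPKM values were deposited by the authors for 6 libraries (3 PBS, 3 rhSema3C), made with an mRNA kit and sequenced on an Illumina NovaSeq instrument. Per the study's methods the authors used Cufflinks and cuffmerge. The aligner, the counting tool, the use of strand and the build are not given in the sources used here, and the gene coordinates of the table lie on GRCh38. The table held no unused sample column.

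Samples were grouped by their labels. Counts of the 14178 genes that averaged 0.5 FPKM or more were compared with edgeR 4.0.16 (TMM factors, quasi-likelihood test, R 4.3.3). Tests were tried on simulated counts. DESeq2 1.42.0 and limma 3.58.1 (log2 values, pseudocount of 1), other scalings and filters, the replicate number as a block and omission of each sample were alternatives. TPM values were FPKM rescaled to sum to 1000000. Figures used matplotlib 3.10.9.

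The members, gene lists and tests were chosen with earlier results of these data known. Named genes were every clustered member past 2-fold, the 5 highest clustered members by FPKM, every variant, the 3 largest rises and falls of the other members and the 2 largest of each list, at an adjusted p below 0.05. One variant is not reported here. H2BC5, H2BC9, H2BC21, H2AC20, H2AW, H3C13, H4C14, H4C15, H4-16, H1-3, H1-4, HP1BP3, RN7SL1 and SLBP were chosen after their values were seen.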

Additional observations from a re-analysis of the deposited data

How the results depend on the processing

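Of the 65 named genes refitted under the alternatives, 47 kept direction and call throughout, 7 changed their side of the threshold and 11 changed direction somewhere. Of the clustered genes named as lower, 0 changed direction. The causes were not tested except where fewer genes were tested. With each sample left out, 30 to 32 clustered genes were lower and 0 higher, and at a fold above 2 with an unadjusted p below 0.05, 20 to 23 were lower and 0 to 1 higher. Variants higher numbered 1 to 2, other members higher 5 to 7, chaperones higher 5 to 8 (5 without rhSema3C replicate 2) and S phase genes higher 2 to 4. With the replicate block 32 clustered genes were lower and 0 higher, and it moved no other count by over 1.5 times. The replicate numbers did not pair the samples: same-numbered samples had correlations of -0.00, 0.06 and -0.03, and PBS replicate 2 alone correlated best with its own number.

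At a mean FPKM of at least 5 fewer genes were tested, and 14 of 15 clustered genes were lower (7 past 2-fold), 2 variants, 1 other member, 4 processing factors and 5 S phase genes higher. Without a filter 5 processing factors and, past 2-fold at an unadjusted p, 1 clustered gene were higher, and 1 RNA without a poly(A) tail was lower. With library size alone 2 variants and 5 S phase genes were higher, and the summed clustered genes had log2 ratios of -0.82 (H1), -0.89 (H2A), -0.98 (H2B), -0.72 (H3), -0.86 (H4) and -0.92 (all). With limma on log2(FPKM + 1) 8 clustered genes and 0 chaperones were lower past 2-fold, and 2 variants and 5 S phase genes higher. With limma on log2(TPM + 1) 10 clustered genes and 0 chaperones were lower past 2-fold, and 3 variants, 13 chaperones, 6 S phase genes and 1 RNA without a poly(A) tail were higher, with 0 other members, 5 processing factors, 7 chaperones and 10 S phase genes lower. The scale log2(value + 1) understates changes of low genes.

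Log2 fold changes that turned were those of H3-3A (0.037 with TPM), H2AW (0.082 with TPM), RN7SL1 (0.019 with TPM), H3-3B (0.017 at FPKM of at least 5, 0.021 with library size alone, 0.014 with FPKM, 0.14 with TPM), H3-5 (0.055 with library size alone, 0.018 with FPKM, 0.12 with TPM) and SLBP (0.099 at FPKM of at least 5, 0.10 with library size alone, 0.095 with FPKM, 0.22 with TPM). H1-3 turned to -0.0064 without a filter, -0.0062 with median-of-ratios factors, -0.0049 with the replicate block and -0.0043 with DESeq2. With each sample left out, the ranges were -0.16 to 0.016 for H3-5, -0.25 to 0.15 for H1-3, -0.081 to 0.22 for H1-4, -0.011 to 0.79 for H4-16, -0.12 to 0.71 for H2AC20, -0.11 to 1.06 for H3C13 and -0.024 to 0.020 for SLBP.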
